A study of Mus musculus with 8 samples.

Results

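The cytochromes P450 of families 1 to 3 are the haem enzymes with which hepatocytes oxidise drugs, pollutants, steroids and arachidonic acid. They were taken here as every probe whose gene symbol in the deposited table was Cyp followed by 1, 2 or 3, a subfamily letter and a number, which excludes genes such as Cyp27a1. This gave 58 genes with 78 probes, among 26894 gene symbols with 56605 gene probes. The samples were liver RNA on 8 Agilent one-colour arrays, hybridised in 2 groups of 4. The Tx group was liver of female NFS/sld mice thymectomised on day 3 after birth and taken 8 weeks after surgery, a model of primary Sjögren's syndrome. The nonTx group was liver of female NFS/sld mice left with their thymus. Both groups carry the strain's sld mutation, which affects salivary gland development. For nonTx mice the labels state neither the age nor a sham operation, and they call the replicates independent without tying each to its own animal, so p-values measure only the spread between these samples.

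Each of these enzymes sits in the membrane of the endoplasmic reticulum and receives electrons from the reductase encoded by Por. Their transcription in liver is set by receptors that sense chemicals (AHR for family 1, CAR and PXR for subfamilies 2b, 2c and 3a), by hepatocyte factors such as HNF4A, and by the sex-dependent pattern of growth hormone, which makes some mouse P450s predominantly female and others predominantly male. Most are strongest in hepatocytes around the central vein, while Cyp2f2 marks those around the portal tract.

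The values are log2 processed signals relative to the 75th percentile of each array, so a value of 0 is the signal of that percentile, and levels of different probes are not comparable. Of the 78 probes, 64 probes of 51 genes were tested, a test requiring signal well above background on 3 or more of a group's 4 arrays. All 8 arrays showed 60 of the 78 probes well above background. Cyp1b1, Cyp2b19, Cyp2b23, Cyp2c65, Cyp2c66, Cyp2d34 and Cyp2j11 had no tested probe, and 12 of the 14 untested probes were well above background on no array. A probe of Cyp2j9 and a probe of Cyp2j13 were tested through the nonTx arrays alone, so no count over tested probes stands for all members.

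Signal over background, the depth of an array, was lower on 3 of the 4 Tx arrays than on any nonTx array. The 75th percentile of the processed signal was 330, 249.6, 229.8 and 224.8 on Tx arrays 1 to 4, against 301.8, 276, 289 and 273.6 on nonTx arrays 1 to 4. The share of probes well above background was 55.45%, 52.51%, 52.15% and 51.1% on Tx arrays, against 54.24%, 57.12%, 56.64% and 55.64% on nonTx arrays. The part of this difference in the P450 results was not tested. All arrays lay on 1 slide, with the Tx arrays in a different slide column from the nonTx arrays, so slide column and group cannot be told apart. The Tx replicate 4 library stood apart: the salivary transcript Bpifa2 had a raw signal of 79616 there, against 7.29 to 116 on the other Tx arrays and 3.01 to 163 on nonTx arrays. Smr3a and Pip, also salivary and also chosen after their values were seen, had 12221 and 5490 on that array. The hepatocyte markers fixed for the tissue check (15 genes, such as Alb and Apob) were all measured, with a summed level of 5890 to 6830 in Tx and 6210 to 6810 in nonTx livers (signal divided by the 75th percentile). Most T cell markers lay lower in Tx livers, with 9 of 15 genes lower at an unadjusted p under 0.05 (6.03% of all tested probes were) and a median log2 difference of -0.46. The 3 brightest were not lower: Cd4 differed by 0.32 ± 0.18, Cd247 by 0.34 ± 0.26 and Cd3e by 0.13 ± 0.12. They make up most of the summed level, which was 28.3 to 42.5 in Tx and 28.5 to 30.9 in nonTx livers. Markers of bile duct, sinusoidal endothelial, stellate and Kupffer cells had medians of -0.21, -0.09, 0.13 and 0.03. The part of these cell types and of the salivary transcripts in the P450 results was not tested. In whole tissue, fewer cells of a type and less RNA per cell cannot be told apart.

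The members with the clearest common pattern were 4 neighbouring Cyp2c genes, and the DNA before them is shown here because these genes had similar differences and lie side by side. In RefSeq's gene order on chromosome 19, Cyp2c67, Cyp2c68, Cyp2c40 and Cyp2c69 follow each other with no other protein-coding gene between them, and Cyp2c37 comes next. The promoters below run from 250 bases before to 50 bases after each annotated start (RefSeq, GRCm38.p6), 5′ to 3′ on the gene's strand. Capitals mark CAAAGTCCA, a core recognised by HNF4A-type receptors, and TATAAA, the letters of a TATA box.

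Cyp2c67, chr19:39648993-39649292, minus strand: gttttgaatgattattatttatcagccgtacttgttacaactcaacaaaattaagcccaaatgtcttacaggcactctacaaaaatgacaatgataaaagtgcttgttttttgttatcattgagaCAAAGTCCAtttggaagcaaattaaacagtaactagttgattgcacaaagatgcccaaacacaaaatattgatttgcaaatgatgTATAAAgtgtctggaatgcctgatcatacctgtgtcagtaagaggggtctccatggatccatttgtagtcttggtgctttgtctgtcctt
Cyp2c68, chr19:39741052-39741351, minus strand: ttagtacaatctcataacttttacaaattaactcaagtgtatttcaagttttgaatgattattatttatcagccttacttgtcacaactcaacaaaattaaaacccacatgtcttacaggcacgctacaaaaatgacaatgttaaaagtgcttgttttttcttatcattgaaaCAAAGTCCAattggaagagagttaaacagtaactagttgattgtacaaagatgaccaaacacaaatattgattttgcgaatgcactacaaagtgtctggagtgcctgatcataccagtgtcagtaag
Cyp2c40, chr19:39812765-39813064, minus strand: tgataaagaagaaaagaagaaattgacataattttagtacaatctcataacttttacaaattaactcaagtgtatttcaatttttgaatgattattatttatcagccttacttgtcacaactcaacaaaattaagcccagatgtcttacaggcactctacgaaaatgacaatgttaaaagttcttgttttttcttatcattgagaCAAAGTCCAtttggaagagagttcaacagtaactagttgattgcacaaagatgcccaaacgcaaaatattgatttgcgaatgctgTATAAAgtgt
Cyp2c69, chr19:39886720-39887019, minus strand: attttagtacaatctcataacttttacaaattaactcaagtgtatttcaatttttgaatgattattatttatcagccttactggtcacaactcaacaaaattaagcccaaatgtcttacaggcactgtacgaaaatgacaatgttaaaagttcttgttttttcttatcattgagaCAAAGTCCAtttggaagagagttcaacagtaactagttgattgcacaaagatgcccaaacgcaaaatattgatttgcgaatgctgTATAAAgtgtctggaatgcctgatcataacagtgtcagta
Cyp2c37, chr19:39992174-39992473, plus strand: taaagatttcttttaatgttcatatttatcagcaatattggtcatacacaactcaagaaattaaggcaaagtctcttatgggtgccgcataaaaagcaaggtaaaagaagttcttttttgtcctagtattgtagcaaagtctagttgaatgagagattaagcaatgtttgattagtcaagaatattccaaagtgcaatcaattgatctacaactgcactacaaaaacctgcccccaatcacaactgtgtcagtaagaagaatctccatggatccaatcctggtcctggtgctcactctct

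The core lies in all 4 promoters of the neighbouring genes, at -125 in Cyp2c67, -77 in Cyp2c68, -45 in Cyp2c40 and -75 in Cyp2c69 relative to the annotated start, and neither Cyp2c37 nor Cyp2c50 holds it in this window. It is also in the promoter of Cyp2c70, whose log2 difference was 0.21 ± 0.23, and Cyp2c54 had no entry in the promoter table used here. TATAAA is present in Cyp2c67 at -40, and in Cyp2c40 and Cyp2c69 at 40 and 10, after the annotated start, where a TATA box is not placed. The Cyp2c68 and Cyp2c69 promoters are identical over 91.1% of 304 alignment positions, and the Cyp2c40 and Cyp2c69 promoters over 80.9% of 330. Cyp2c40 and Cyp2c37 share 45.3% of 384 positions. Cyp2c67 shares 65.9%, 54.2% and 66.6% with Cyp2c68, Cyp2c40 and Cyp2c69. With Cyp2c37 and Cyp2c50 it shares 65.0% and 64.5%. Unpaired bases count as positions, so windows offset by their annotated starts have lower shares. The core lies at -125 in Cyp2c67, against -77, -45 and -75 in Cyp2c68, Cyp2c40 and Cyp2c69. With windows offset in this way, the shares cannot tell which promoters are closest to that of Cyp2c67, nor how far Cyp2c40 and Cyp2c37 differ. Cyp2c37 and Cyp2c50 are in turn 86.6% identical. Searched on both strands, CAAAGTCCA was found in 9 of 53 promoters of 50 P450 genes (17%), against 156 of 32851 promoters in all (0.475%). The 9 were those of Cyp2c40, Cyp2c65, Cyp2c67, Cyp2c68, Cyp2c69, Cyp2c70, Cyp3a11, Cyp3a16 and Cyp3a41a. TATAAA was in 50.9% of P450 promoters and 13.6% of all, the nuclear receptor site AGGTCA in 35.8% and 16.3%, the AHR core GCGTG in 17% and 32.4%, and the STAT5-type TTCNNNGAA in 1.89% and 8.3%. Motifs were chosen after the expression values were known, related promoters are not independent, and a match is a description of letters.

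Across the whole set, P450 probes tended to lie slightly higher in Tx livers, but no probe passed the test. Of the 64 tested probes, 56 (87.5%) had a higher mean in Tx livers, with a median log2 difference of 0.20. With limma and Benjamini-Hochberg adjustment over all 30955 tested probes, 0 of the 64 reached an adjusted p under 0.05, as did 0 probes in all (0.0%). The smallest adjusted p was 0.206 among the P450s and 0.0577 among all probes. At an unadjusted p under 0.05, 16 P450 probes (25%) were higher in Tx livers, against 7.17% of all tested probes, and 1 (1.56%) was lower, against 6.03% of all. All 4 Tx arrays lay above all 4 nonTx arrays for 9 P450 probes (14.1%), against 4.47% of all probes, and below them for 0, against 3.4% of all. Over all tested probes, the median difference was 0.02 and 52.6% were higher.

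That excess moved with signal level. Bright probes of any gene tended to be higher in Tx livers after this scaling, and P450 transcripts are abundant in liver: 38 of the 64 lay in the brightest 10% of tested probes. Among them the median difference of all 3096 probes was 0.15, with the middle 50% between 0.07 and 0.21, and 86.6% were higher, 20.8% were higher at an unadjusted p under 0.05 and 14.6% did not overlap between groups. The 38 P450 probes there had a median of 0.21, with 37 (97.4%) higher, 12 (31.6%) at that p and 6 (15.8%) not overlapping. So the share of P450 probes whose groups did not overlap was close to that of equally bright probes. The sizes were more spread upward: 20 of 38 P450 probes (52.6%) exceeded a log2 difference of 0.2, against 30.4% of the brightest 10%, 11 (28.9%) exceeded 0.3, against 8.49%, 8 (21.1%) exceeded 0.4, against 4.72%, 5 (13.2%) exceeded 0.5, against 3.26%, and 2 (5.26%) exceeded 0.6, against 2.52%. Signal strata and thresholds were added after the values were seen, and several of these probes belong to near-identical paralogs.

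**Figure D1:**
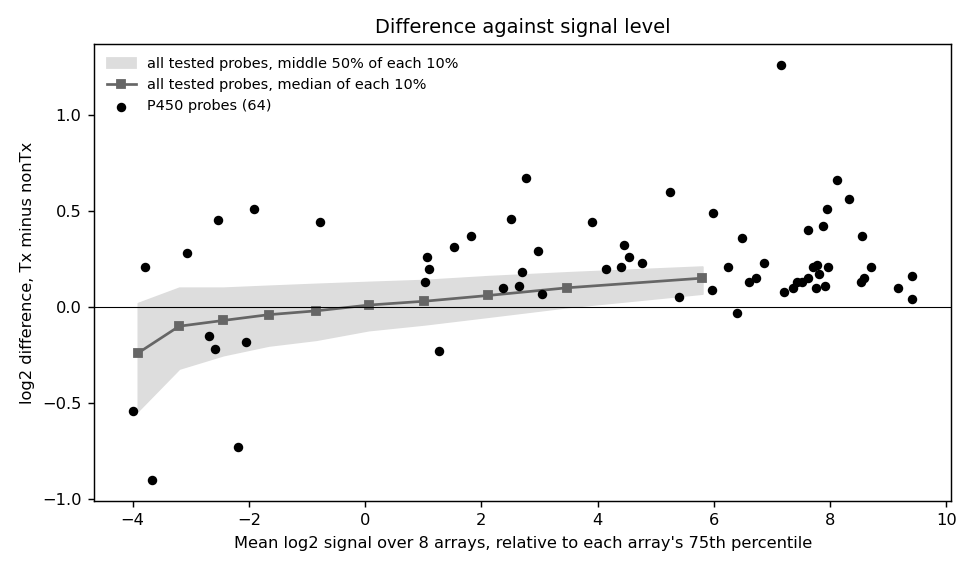
Log2 difference, Tx minus nonTx, of each of the 64 tested P450 probes (points) against its mean log2 signal over the 8 arrays, with the median (line) and the middle 50% (band) of all tested probes in each 10% of signal. The band climbs with signal, to a median of 0.15 in the brightest 10%, where 38 P450 probes lie.

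The direction also depended on the scaling. With quantile normalization, which removes the drift with signal, 44 of 64 P450 probes were higher, with a median of 0.07. The median of the brightest 25% of all probes was then 0.0. At an unadjusted p under 0.05, 10 P450 probes were higher, against 4.72% of all tested probes and 4.25% of the brightest 25%. When arrays were instead scaled to the 8 spike-in RNAs detected on every array, 23 P450 probes were higher, the median was -0.03 and the median of all tested probes moved to -0.22. In each of these scalings the P450 median lay above the median of the brightest 25%, which was 0.12 as reported, 0.0 with quantile normalization and -0.12 with spike-ins.

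**Figure D2:**
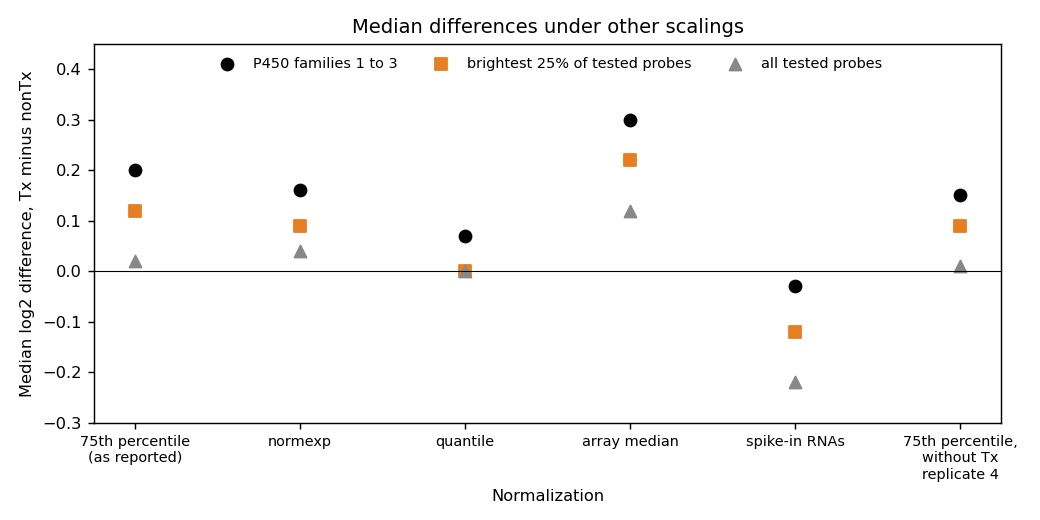
Median log2 difference, Tx minus nonTx, of the 64 P450 probes, of the brightest 25% of tested probes and of all tested probes under 5 scalings and without Tx replicate 4. The P450 median is 0.20 as reported, 0.07 after quantile normalization, -0.03 after spike-in scaling and 0.15 without Tx replicate 4.

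The difference was not equal over the arrays. The median deviation of the 64 probes from their 8-array means was -0.04, 0.06, 0.17 and 0.24 on Tx arrays 1 to 4, against -0.14, -0.05, -0.15 and -0.03 on nonTx arrays 1 to 4. Tx replicate 1 lay among the nonTx arrays, and Tx replicates 3 and 4 were highest. The brightest 25% of all probes had the same order in Tx, at -0.03, 0.02, 0.09 and 0.14, against -0.06, -0.06, -0.04 and -0.06 on nonTx arrays. Without Tx replicate 4, the array with salivary transcripts, the P450 median was 0.15. At an unadjusted p under 0.05, 11 P450 probes were then higher and 0 lower. Of all tested probes, 4.42% were higher and 5.07% lower at that p, and 8.85% of the brightest 25% were higher.

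**Figure D3:**
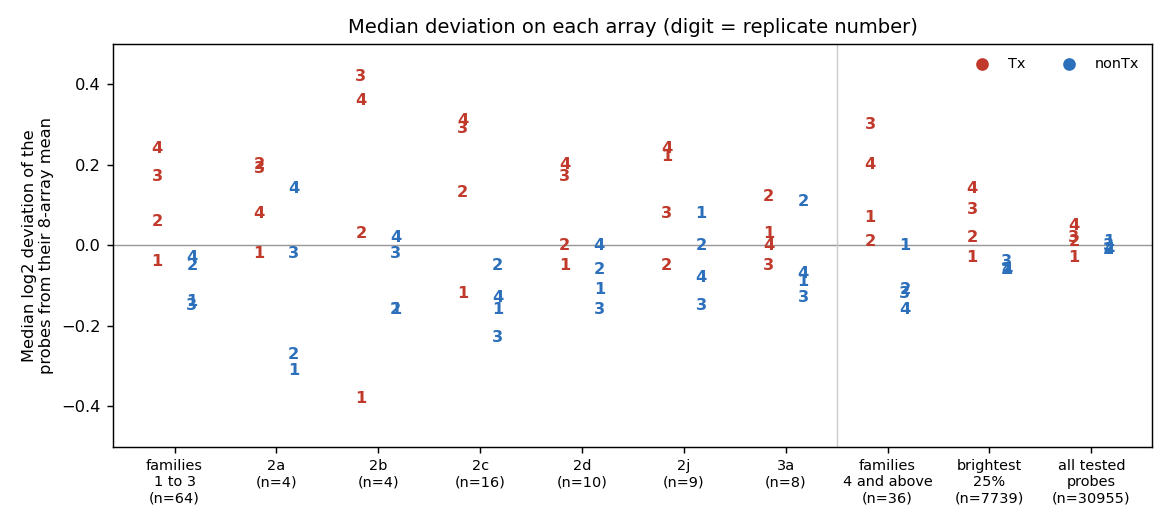
Median log2 deviation of each subfamily's tested probes from their 8-array means, on each Tx and nonTx array (the digit is the replicate number), with families 4 and above, the brightest 25% and all tested probes at right. For families 1 to 3, Tx replicate 1 lies at -0.04, within the nonTx range of -0.15 to -0.03.

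By subfamily, 2c and 2j held most of the low p-values, and 3a and 2e held none. All 16 tested probes of 2c and all 10 of 2d were higher in Tx livers, with medians of 0.27 and 0.13, and 5 and 1 of them had an unadjusted p under 0.05. Subfamily 2a had 4 of 4 probes higher (median 0.17) and 2b 4 of 4 (0.24), each with 1 at that p. Of the 9 probes of 2j, 6 were higher, 4 of them at that p, and 3 lower, 1 of them at that p, a dim Cyp2j9 probe that entered the test only through the nonTx arrays, where it is higher. Subfamily 3a had 7 of 8 higher with a median of 0.14, and 2e 2 of 2 with a median of 0.10. These counts stand beside the 7.17% of all tested probes and the 20.8% of the brightest 10% that were higher at that p.

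**Figure D4:**
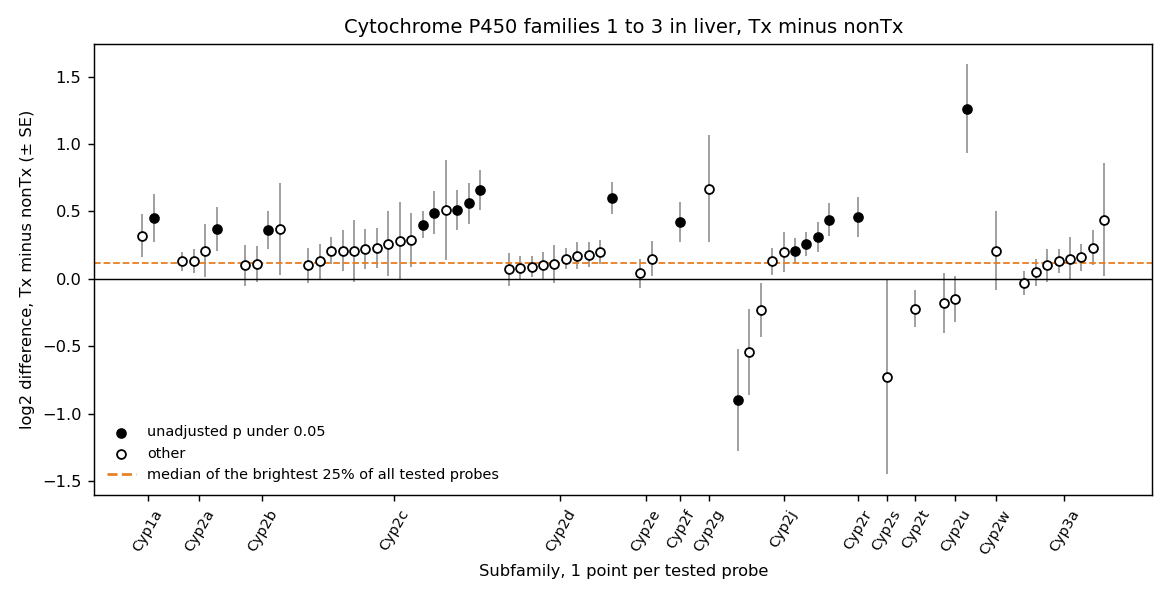
Log2 difference, Tx minus nonTx, with its standard error for each of the 64 tested P450 probes, grouped by subfamily; filled points have an unadjusted p under 0.05 and the dashed line is the median of the brightest 25% of tested probes, 0.12. Most points lie above 0, and the largest differences are 1.26 for a probe of Cyp2u1 and -0.90 for a dim probe of Cyp2j9.

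Family 1 holds the enzymes induced through AHR, the receptor for dioxins and other aromatic compounds. Cyp1a1 read -2.20, -2.09, -2.59 and -2.34 in Tx livers, against -3.13, -2.63, -2.76 and -2.48 in nonTx livers. Cyp1a2, which oxidises caffeine and aromatic amines, read 4.33, 4.53, 4.83 and 4.80 in Tx livers, against 4.01, 4.21, 4.25 and 4.74 in nonTx livers. In both genes the nonTx replicate 4 array reached into the Tx range. The differences were 0.45 ± 0.18 for Cyp1a1 (SE; unadjusted p = 0.0341, adjusted p = 0.357 by limma) and 0.32 ± 0.16 for Cyp1a2 (adjusted p = 0.416).

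Subfamilies 2a and 2b hold steroid hydroxylases and CAR targets, several of them female-predominant in mouse liver. Cyp2a4, a female-predominant steroid hydroxylase, read 8.60, 8.86, 8.85 and 8.66 in Tx livers, against 8.02, 8.18, 8.52 and 8.77 in nonTx livers. The nonTx arrays ranged more widely than the Tx arrays and overlapped them through replicate 4 (difference 0.37 ± 0.16, adjusted p = 0.362). Cyp2b13, also female-predominant, read 6.39, 6.42, 7.01 and 6.87 in Tx livers, against 6.29, 6.36, 6.37 and 6.23 in nonTx livers. The groups did not overlap, but Tx replicates 1 and 2 lay just above the nonTx range (difference 0.36 ± 0.14, adjusted p = 0.346). Cyp2b9 read 7.58, 7.89, 8.13 and 8.24 in Tx livers, against 7.89, 7.78, 7.87 and 7.85 in nonTx livers. Its nonTx arrays were nearly level while the Tx arrays spread to both sides, and the difference of 0.11 ± 0.13 turned to -0.04 with quantile normalization and -0.12 with spike-in scaling. The 2 probes of Cyp2b10, the classical CAR target, differed by 0.37 ± 0.34 and 0.10 ± 0.15. The coumarin hydroxylase Cyp2a5 differed by 0.13 ± 0.09.

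Subfamily 2c holds many of the enzymes that epoxidise arachidonic acid, and the bile acid hydroxylase Cyp2c70. Cyp2c68 read 8.23, 8.44, 8.52 and 8.59 in Tx livers, against 8.04, 8.05, 7.39 and 7.66 in nonTx livers. Cyp2c67 read 8.44, 8.58, 8.63 and 8.77 in Tx livers, against 8.18, 8.37, 7.64 and 8.00 in nonTx livers. All Tx arrays lay above all nonTx arrays in both genes, and nonTx replicate 3 was lowest. Cyp2c69, female-predominant, read 8.01, 8.23, 8.21 and 8.32 in Tx livers, against 7.95, 7.97, 7.30 and 7.53 in nonTx livers. Cyp2c40, female-predominant and known to hydroxylate arachidonic acid, read 6.16, 6.06, 6.36 and 6.34 in Tx livers, against 5.87, 6.17, 5.46 and 5.45 in nonTx livers. Cyp2c69 had no overlap between groups, and Cyp2c40 overlapped through nonTx replicate 2.

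These 4 genes, whose promoters are printed above, had log2 differences of 0.66 ± 0.15 (Cyp2c68, 1.58-fold), 0.56 ± 0.15 (Cyp2c67, 1.47-fold), 0.51 ± 0.15 (Cyp2c69, 1.42-fold) and 0.49 ± 0.16 (Cyp2c40, 1.41-fold). Their unadjusted p-values by limma were 0.00158, 0.00361, 0.00772 and 0.0115, and the adjusted p-values 0.26, 0.283, 0.297 and 0.313. In each gene nonTx replicates 3 and 4 were the lowest of the 8 arrays. Because the sequences of such paralogs are close, their probes may share target RNA, so the 4 genes may not be independent observations; the probe sequences were not used here. Without Tx replicate 4 the differences of Cyp2c68, Cyp2c67, Cyp2c69 and Cyp2c40 were 0.61, 0.50, 0.46 and 0.46, and without nonTx replicate 3 they were 0.53, 0.42, 0.38 and 0.40. With quantile normalization they were 0.53, 0.46, 0.36 and 0.32, and with spike-in scaling 0.42, 0.32, 0.27 and 0.26. The neighbour on the other side of Cyp2c37, Cyp2c54, read 7.67, 7.73, 7.86 and 7.97 in Tx livers, against 7.48, 7.51, 7.17 and 7.47 in nonTx livers. Its groups did not overlap (difference 0.40 ± 0.10, unadjusted p = 0.00313, adjusted p = 0.283).

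The other cluster genes differed less for their spread. Cyp2c50 read 8.42, 8.86, 8.89 and 9.06 in Tx livers, against 8.45, 8.55, 8.50 and 8.91 in nonTx livers, which overlapped (0.21 ± 0.15). Cyp2c29 differed by 0.21 ± 0.10, Cyp2c38 by 0.22 ± 0.15, Cyp2c39 by 0.10 ± 0.13, Cyp2c37 by 0.13 ± 0.13, Cyp2c70 by 0.21 ± 0.23 and the brighter probe of Cyp2c55 by 0.51 ± 0.37. Cyp2c44, now called Cyp2c23, lies outside the cluster, with 52 protein-coding genes between, and its 2 probes differed by 0.23 ± 0.15 and 0.29 ± 0.20. No test compared the neighbouring genes with the rest of the cluster, since they were picked out for their values.

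**Figure D5:**
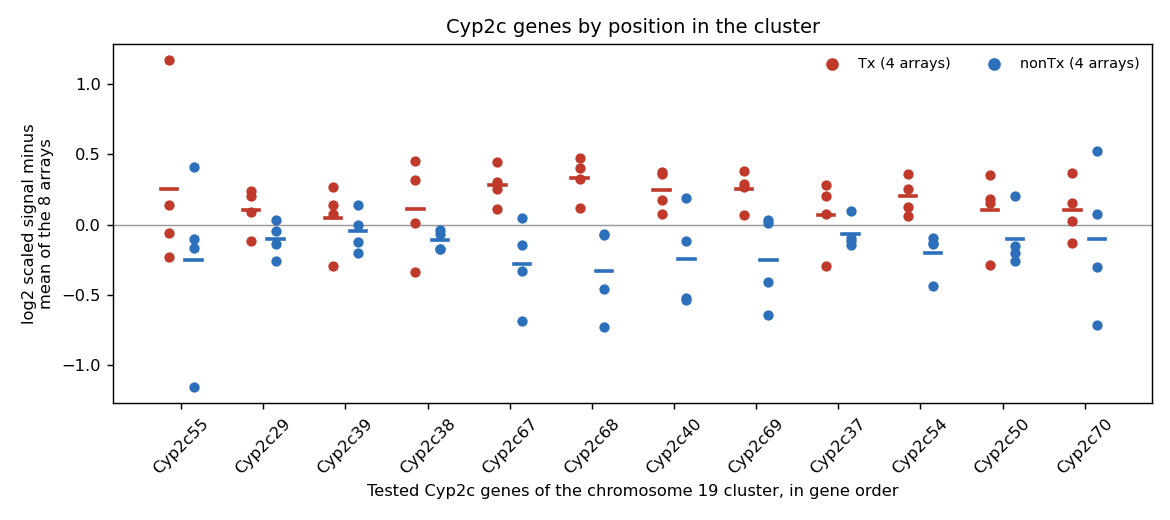
Log2 scaled signal on each Tx and nonTx array minus the mean of the 8 arrays, for the brightest tested probe of each Cyp2c gene of the chromosome 19 cluster in gene order (horizontal lines are group means). The Tx and nonTx points separate in Cyp2c67, Cyp2c68, Cyp2c69 and Cyp2c54 and overlap in the other 8 genes.

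Subfamily 2d, the relatives of the human drug-metabolising enzyme CYP2D6, was nearly level apart from Cyp2d40. Cyp2d40 read 5.43, 5.26, 5.76 and 5.72 in Tx livers, against 4.82, 5.02, 5.09 and 4.86 in nonTx livers. Every Tx array lay above every nonTx array, and its p was the smallest of all P450 probes (0.60 ± 0.12, 1.51-fold, unadjusted p = 0.000684, adjusted p = 0.206 by limma). Its second probe was well above background on 0 Tx and 2 nonTx arrays and was not tested. Cyp2d26 read 9.0, 9.19, 9.31 and 9.36 in Tx livers, against 9.15, 9.08, 9.05 and 9.20 in nonTx livers, which overlapped (0.10 ± 0.10). The other 8 tested probes of the subfamily differed by 0.07 to 0.20, among them Cyp2d9, a male-predominant testosterone hydroxylase, at 0.07 ± 0.12. The brighter probe of Cyp2d13 also had no overlap between groups (0.20 ± 0.09, adjusted p = 0.387 by limma).

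Cyp2e1, which oxidises ethanol and acetaminophen, was level: its brighter probe read 9.12, 9.48, 9.56 and 9.59 in Tx livers, against 9.35, 9.39, 9.35 and 9.48 in nonTx livers. The lowest of the 8 was Tx replicate 1, and the difference was 0.04 ± 0.11 (second probe 0.15 ± 0.13). Cyp2f2, the periportal enzyme that activates naphthalene, read 7.87, 7.94, 8.39 and 8.15 in Tx livers, against 7.44, 8.00, 7.48 and 7.77 in nonTx livers. Only nonTx replicate 2 reached into the Tx range (0.42 ± 0.15, adjusted p = 0.332). Cyp2g1, best known from the olfactory mucosa, read 2.48, 3.93, 2.60 and 3.39 in Tx livers, against 2.05, 2.19, 1.95 and 3.53 in nonTx livers. A single array in nonTx and a pair in Tx were high, and the difference of 0.67 ± 0.40 was within the spread (adjusted p = 0.463).

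Subfamily 2j holds epoxygenases of arachidonic acid, and its probes had differences of both signs. Cyp2j5 read 6.34, 6.20, 6.35 and 6.48 in Tx livers, against 6.22, 6.24, 6.03 and 6.06 in nonTx livers. Cyp2j6 read 1.86, 1.47, 1.62 and 1.83 in Tx livers on its brighter probe, against 1.20, 1.40, 1.39 and 1.53 in nonTx livers. Both overlapped slightly, with differences of 0.21 ± 0.09 and 0.31 ± 0.11 (adjusted p = 0.364 and 0.327). The second Cyp2j6 probe read -0.56, -0.62, -0.51 and -0.54 in Tx livers, against -1.28, -0.99, -0.98 and -0.75 in nonTx livers. Its groups did not overlap and its Tx arrays were tightly level (0.44 ± 0.12, unadjusted p = 0.00472, adjusted p = 0.283). Cyp2j8 differed by 0.26 ± 0.09. Both probes of Cyp2j9 were lower in Tx livers, by -0.23 ± 0.20 and -0.90 ± 0.38, the second being the dim probe tested through nonTx arrays alone. The 2 tested probes of Cyp2j13 differed in sign, at 0.20 ± 0.15 and -0.54 ± 0.32, the negative value again from a probe tested through nonTx arrays alone.

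Among the subfamilies with a single gene, Cyp2r1, which hydroxylates vitamin D in liver, read 2.46, 2.45, 3.15 and 2.89 in Tx livers, against 2.24, 2.38, 2.35 and 2.15 in nonTx livers. The groups did not overlap (0.46 ± 0.15, adjusted p = 0.318). Cyp2u1, a fatty acid hydroxylase, had the largest difference of the 64 probes: its bright probe read 8.28, 6.66, 8.39 and 7.80 in Tx livers, against 6.53, 6.61, 6.17 and 6.78 in nonTx livers. Tx replicate 2 lay within the nonTx range and the other Tx arrays above it (1.26 ± 0.33, 2.4-fold, unadjusted p = 0.00336, adjusted p = 0.283). Without Tx replicate 2 the difference was 1.64 with an adjusted p of 0.0061 by limma (0.0061 to 0.516 over all alternatives), and Cyp2d40 also passed, at 0.69 with an adjusted p of 0.0367 (0.0367 to 0.764). Leaving out that array, which lay within the nonTx range for Cyp2u1, made 188 probes of all pass, against 0 to 3 for any other array. The 2 other Cyp2u1 probes differed by -0.18 ± 0.22 and -0.15 ± 0.17, and the mean over its 3 probes was 0.31. The probes disagree, and the gene has no settled direction.

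The remaining single-gene subfamilies were dim and level within their spread. Cyp2s1 read -1.29, -4.87, -1.72 and -2.31 in Tx livers, against -3.13, -1.68, -1.25 and -1.21 in nonTx livers. Its difference of -0.73 ± 0.72 rested on Tx replicate 2 and was 0.04 without it. Cyp2t4 read -2.80, -2.50, -2.68 and -2.79 in Tx livers, against -2.51, -2.47, -2.55 and -2.38 in nonTx livers (-0.22 ± 0.14). Cyp2w1 read -4.27, -3.13, -3.86 and -3.44 in Tx livers, against -3.45, -3.87, -3.93 and -4.29 in nonTx livers, with an overlap over most of the range (0.21 ± 0.29).

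Family 3, the PXR-regulated enzymes that oxidise many drugs and steroids, had no probe at an unadjusted p under 0.05. Cyp3a41a, female-predominant, read 9.27, 9.72, 9.54 and 9.44 in Tx livers, against 9.32, 9.41, 9.26 and 9.33 in nonTx livers. Cyp3a44, also female-predominant, read 4.14, 5.27, 3.72 and 3.40 in Tx livers, against 2.97, 3.92, 3.35 and 4.51 in nonTx livers. Both overlapped, with differences of 0.16 ± 0.10 and 0.44 ± 0.42. Cyp3a11, the main PXR target in mouse liver, differed by 0.10 ± 0.12, Cyp3a13 by 0.23 ± 0.13, Cyp3a16 by 0.15 ± 0.16, Cyp3a25 by -0.03 ± 0.09, Cyp3a57 by 0.05 ± 0.10 and Cyp3a59 by 0.13 ± 0.09. Across the arrays, the family 3 median deviations were 0.03, 0.12, -0.05 and 0.0 in Tx livers, against -0.09, 0.11, -0.13 and -0.07 in nonTx livers.

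Grouped by what controls them, the P450 genes gave similar small differences, each gene being taken by its brightest probe. Of all probes in the brightest 10%, where most of these genes lie, 86.6% were higher and 20.8% were so at an unadjusted p under 0.05, so a list with nearly all members higher is near that background. All 10 tested female-predominant genes were higher in Tx livers, with a median of 0.26 and 4 at an unadjusted p under 0.05. All 4 genes listed as male-biased (Cyp2d9, Cyp1a2, Cyp2u1 and Cyp2f2) were higher too, with a median of 0.37 and 2 at that p. Of these 2, 1 is the bright probe of Cyp2u1, whose other probes have the opposite sign. Of 14 CAR- or PXR-responsive genes 13 were higher (median 0.18, 3 at that p), and of 14 tested epoxygenases 13 (median 0.22, 5 at that p). All 10 pericentral P450s were higher, with a median of 0.21 and 2 at that p. P450s of families 4 and above act mostly on fatty acids, sterols and bile acids. Of their 36 tested probes, 31 were higher, with a median of 0.26 and 5 (13.9%) at that p. Only 15 of the 36 lie in the brightest 25% of all tested probes, and 14 of these 15 were higher. In that 25%, 77.5% of all tested probes were higher. Below it, 44.3% of all tested probes were higher and 4.2% were so at that p. The background of the brightest 10% is therefore no measure for most of this set.

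The partners and regulators of these enzymes were described from lists of their own. Of 16 genes for electron transfer and for haem supply or breakdown, 15 were higher in Tx livers with a median of 0.18. At an unadjusted p under 0.05, 3 were higher, among them Blvrb (0.22 ± 0.08), which reduces biliverdin, and the haem synthesis enzyme Urod (0.23 ± 0.08). Neither Blvrb nor Urod overlapped between groups. The 3 of 16 (18.8%) stand beside the 20.8% of the brightest 10% of probes, of which 14.6% did not overlap. Of 35 regulators 25 were higher with a median of 0.07, and 3 were higher and 1 lower at that p. The growth hormone signal transducer Stat5a had probes of opposite sign (1.36 ± 0.20, adjusted p = 0.0852, and -0.27 ± 0.21). The repressor Nr0b2 differed by -0.52 ± 0.20, and the pioneer factor Foxa2 by 0.34 ± 0.15. Hepatocyte zonation markers other than P450s had medians of 0.11 around the central vein (12 of 21 higher, 6 at that p, and 9 lower, 1 at that p) and 0.09 around the portal tract (18 of 20 higher, 0 at that p). Of all tested probes, 7.17% were higher and 6.03% lower at that p. Most of these markers lie in the brightest 25% of probes, of which 77.5% were higher. In that 25%, 16.1% were higher and 2.44% lower at that p. The pericentral genes with the smallest p were the glutamate transporter Slc1a2 (0.54 ± 0.11), Lhpp (0.56 ± 0.13) and the ornithine aminotransferase Oat (0.50 ± 0.13). The lower one at that p was the Wnt pathway receptor Lgr5 (-0.39 ± 0.14, all Tx arrays below all nonTx arrays). Rnf43, Notum, Nkd1 and Tbx3, also of that pathway, differed by -0.43 ± 0.20, -0.20 ± 0.12, -0.15 ± 0.11 and -0.15 ± 0.34. On the same list Axin2, Glul and Rhbg were not lower, at 0.02 ± 0.42, 0.19 ± 0.10 and 0.32 ± 0.12. The genes from Lgr5 to Rhbg were named after their values were seen. Among periportal genes, those with the smallest p were Ctsc (0.20 ± 0.10), Asl (0.26 ± 0.15, with a second probe at -0.75 ± 0.35) and Arg1 (0.21 ± 0.14). None of these passed the adjusted test.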

How the data were processed

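Liver RNA (0.5 ug per array, per the labels' protocols) was hybridised to 8 one-colour Agilent arrays. The deposited scanner files hold background-subtracted intensity which the file headers credit to Feature Extraction 10.7.1.1, whereas version 9.1 appears in the submitters' processing notes. The authors' deposited table adds signed fold changes, a score not used here. The authors' deposited table also holds log2 values, rebuilt within 0.0016 from the 75th percentile scaling and a probe median. Here, log2 of the processed signal minus each array's 75th percentile was used, control spots were left out, outlier spots were set to missing and spots of a probe were averaged. A probe was tested when its signal was well above background on 3 or more of a group's 4 arrays, with at least 2 values per group (30955 probes). The comparison used R 4.3.3 and limma 3.58.1 (lmFit and trended eBayes, two-sided, Benjamini-Hochberg over all tested probes, threshold 0.05), files being read with data.table (version 1.17.8); the fit was tested on simulated data. Errors are standard errors. The precision is limited by 4 arrays per group. The reported symbols are those of the files, of which 1 was updated (Cyp2c44).

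The genes with a value for every array were the 8 with the smallest p, and the brightest and the most different gene of each subfamily, each by its brightest probe, with further probes where they matter; of each partner, regulator and zonation list the 3 genes with the smallest p are named, except 1 that is not reported here. The members, lists and tests were chosen with earlier results of these data known. No coordinates beyond those of the RefSeq promoters are given, since the headers name another build than the reference. Promoters were compared in Python 3.11.15 with pandas 2.3.3 and Biopython 1.88. The alternatives were normexp (offset 50), quantile, array median and spike-in scaling, the authors' log2 values, no filter, a filter on all 8 arrays, a floor at percentile 1, array weights, robust variance, no variance trend, retained outlier spots, averaging each gene's probes, a block for replicate number, and each array left out.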

Additional observations from a re-analysis of the deposited data

Results flagged for a closer look

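Among 50 groups of 4 arrays examined (the 25 named genes in each group), 2 held an array far from the others, where chance flags about 1 in 20. Cyp2c54 was lowest on nonTx replicate 3, at 7.17, with the nearest nonTx array at 7.47, a gap of 0.902 of the group's range. Without that array its difference was 0.32. Cyp2g1 was highest on nonTx replicate 4, at 3.53, with the nearest nonTx array at 2.19, a gap of 0.847 of the range.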

How the results depend on the processing

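Over 21 alternatives, the named genes gave 529 differences, of which 516 kept their direction and their side of the threshold. The count of all tested probes past an adjusted p of 0.05, 0 as reported, was 2 with normexp, 6 with array median scaling, 202 with spike-in scaling, 1 with the authors' log2 values, 1 without a variance trend, 5 with robust variance, 7 with array weights and 1 with a replicate block, and 0 to 188 with an array left out. Of the P450 probes, 0 to 2 passed with an array left out. P450 probes higher at an unadjusted p under 0.05 numbered 16 as reported, 10 with quantile normalization and 27 with array median scaling. They numbered 1 with spike-in scaling and 11 to 26 with an array left out. The share of all tested probes higher at that p was 7.17% as reported. In the other settings, in the same order, it was 4.72%, 15.7%, 0.714% and 4.42% to 12.3%, so these P450 counts moved with the whole array. P450 probes lower at that p numbered 1 as reported. There were 0 with normexp, quantile normalization, array median scaling or the filter on all 8 arrays. With spike-in scaling there were 2, and with an array left out 0 to 2. Of all tested probes, 3.88%, 6.09%, 3.36%, 5.3%, 8.18% and 4.19% to 8.65% were lower in these settings, in that order. The P450 median of 0.20 was 0.07 with quantile normalization, 0.30 with array median scaling, -0.03 with spike-in scaling and 0.15 to 0.25 with an array left out. Directions turned with quantile normalization for Cyp2b9 (-0.04) and Cyp2e1 (-0.01), and with spike-in scaling for Cyp2b9 (-0.12), Cyp2c50 (-0.03), Cyp2d26 (-0.14), Cyp2e1 (-0.19), Cyp2j5 (-0.03), Cyp2w1 (-0.03) and Cyp3a41a (-0.07). Cyp2e1 was -0.01 without Tx replicate 4 and Cyp2s1 ran from -1.17 without nonTx replicate 1 to 0.04 without Tx replicate 2. The cause was not tested. The replicate block gave 18 P450 probes higher and 1 lower at an unadjusted p under 0.05, against 6.67% and 6.47% of all tested probes. Deviations of same-numbered arrays correlated at 0.04, 0.08, 0.1 and -0.01, within the -0.11 to 0.13 of differently numbered arrays. No pairing by number was seen, but with so few arrays this check cannot exclude it. The 10 spike-in RNAs were all higher in Tx after the reported scaling, by 0.06 to 0.37, and 14 P450 probes were too dim to test.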
